A study of Rattus norvegicus with 24 samples.

Results

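Of 32662 Ensembl gene IDs counted in rat amygdala and dorsal raphe, 26 were present in the amygdala and close to absent from the dorsal raphe. They were chosen by their levels in the 24 libraries of the study. The counts of the 12 libraries of a region were summed and divided by the summed library totals to give CPM, the usual unit that corrects for depth. An ID was included at a pooled level of at least 4 CPM in the amygdala together with less than 0.5 CPM in the raphe. They made up 0.220% of the 11799 IDs that reached 4 CPM in the amygdala. Because the levels in the 2 regions chose these genes, the difference between regions is described here without a test.

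The libraries were poly-A RNA sequencing libraries from brain tissue of 60-day-old rats of lines selectively bred for their response to novelty. The high-responder and the low-responder line each gave 6 amygdala and 6 dorsal raphe libraries. No treatment or introduced allele is named in the labels. Nothing in the labels says whether each library was made from a different animal. The p-values therefore describe the scatter of these 6 libraries, and that scatter may be technical. Each response is represented by a single line. Totals ranged from 9232983 to 20194601 counts and each library had 18455 to 19821 detected genes. High-responder amygdala library 1 was the deepest. The amygdala libraries numbered 3 of both lines stood apart in their most abundant transcripts. Counts in the series' 10 most counted genes were 3.07% of the total in the high-responder and 1.99% in the low-responder library 3, against 5.65% to 7.52% in the other 10 amygdala libraries.

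The amygdala is a group of forebrain nuclei that takes part in learned fear and other emotional behaviour. It holds excitatory neurons related to those of the cortex and inhibitory neurons related to those of the striatum. The dorsal raphe lies in the brainstem and is a main source of serotonin for the forebrain. Forebrain and brainstem neurons arise from different parts of the neural tube, and many transcription factors and receptors are made in one and not in the other. The tables give IDs without symbols, and the reference gene table matched 0 of the 26 IDs. The genes are therefore described by ID, with no name or role, and markers of the regions and of cell types could not be read.

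The 26 genes spanned a wide range of amygdala levels. The pooled level was above 20 CPM for 6 genes, from 10 to 20 CPM for 5 and under 10 CPM for 15, with a median of 8.22 CPM. Together they held 65437 amygdala counts and 764 raphe counts. The 5 most abundant genes made up 57.6% of their summed amygdala level, and a single gene, ENSRNOG00000047891, made up 27.2%.

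ENSRNOG00000047891 was the most abundant of the 26 and, relative to its mean, varied least between amygdala libraries. Its level in the high-responder amygdala had a lowest value of 105 CPM, a median of 118.9 and a highest value of 126.1 CPM. In the low-responder amygdala these were 112.2, 116.7 and 140.4 CPM. It had 17796 amygdala counts and 19 raphe counts, 6 of the latter in high-responder raphe library 3, where it stood at 0.310 CPM. Its highest raphe value was 0.352 CPM. The ratio of its pooled levels was 951, with a 95% counting interval of 609 to 1580 (exact binomial). ENSRNOG00000005049 came next, at 29.3 to 56.7 CPM over the 12 amygdala libraries with a median of 40.2 CPM, and at most 0.365 CPM in any raphe library. Its pooled ratio was 289, with an interval of 191 to 462. These intervals, and the floors given below, cover counting error only and leave out the scatter between libraries. Sequenced reads that carry no molecular identifier may be copies of 1 molecule, so the counting error itself may be larger.

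**Figure D1:**
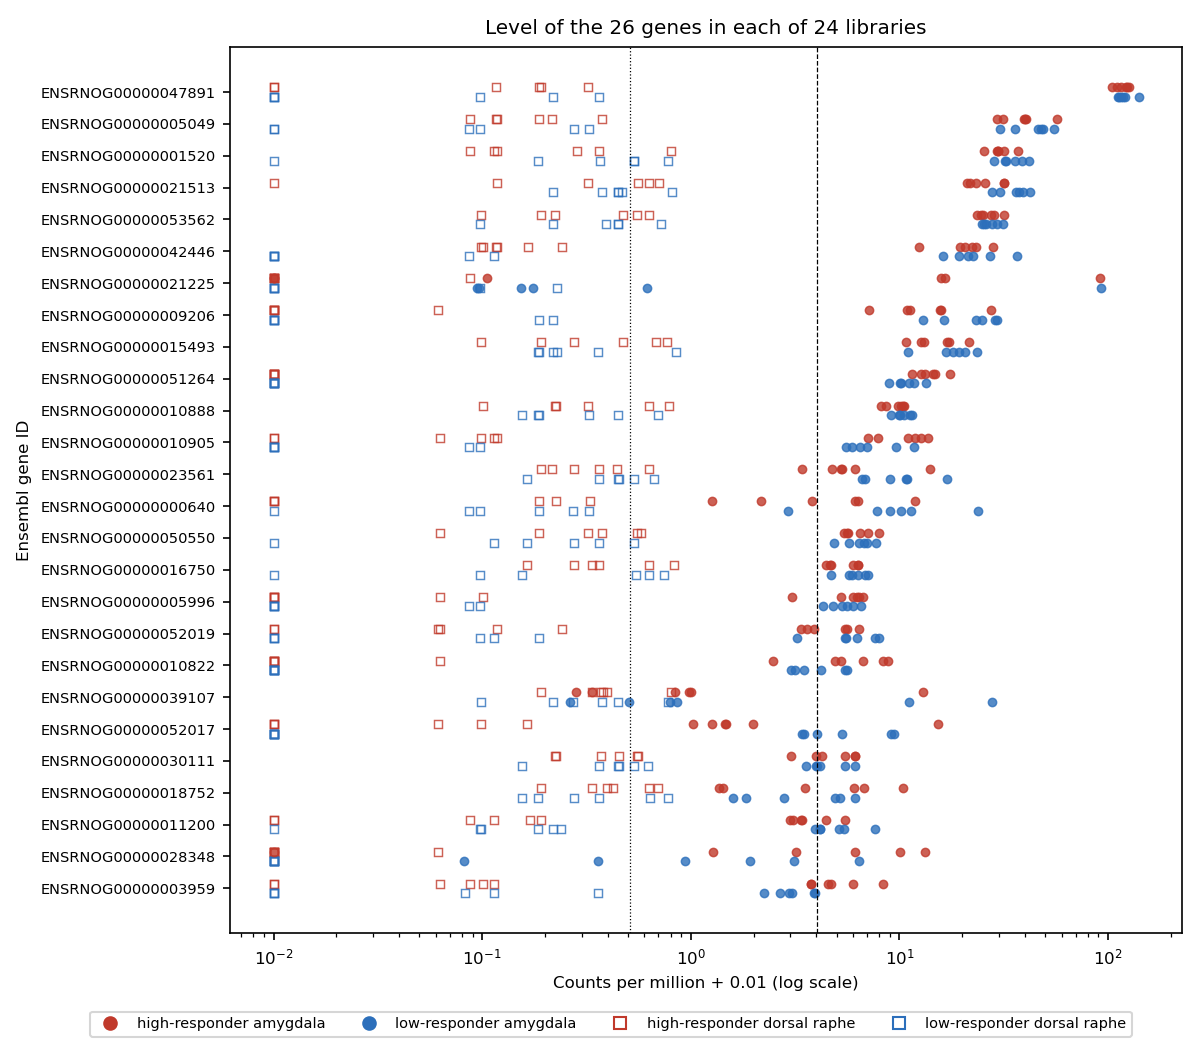
Levels of the 26 genes in all 24 libraries, as CPM plus 0.01 on a log axis, with filled circles for amygdala and open squares for dorsal raphe, red for high-responder and blue for low-responder rats. The dashed and dotted lines mark the 4 and 0.5 CPM of the selection. Amygdala circles lie to the right of every raphe square for 23 genes and among them for 3.

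All 12 amygdala libraries lay above all 12 raphe libraries for 23 of the 26 genes (88.5%). Over all genes with at least 1 count this held for 7.14%, and nothing can be read from the contrast, since the selection used the same levels. For the other 3, some amygdala libraries did not exceed the highest raphe library: 7 for ENSRNOG00000021225, 5 for ENSRNOG00000039107 and 1 for ENSRNOG00000028348. A level of 4 CPM was reached in every one of the 12 amygdala libraries by 13 genes. In bulk tissue, fewer cells of a type and less RNA per cell cannot be told apart.

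Close to absent did not mean undetected. Only ENSRNOG00000051264 had 0 raphe counts among 152992645, with 1889 in the amygdala. With a floor of 3 counts over the 12 raphe libraries (0.0196 CPM) its level was at least 639-fold higher in the amygdala. The others had 1 to 65 raphe counts: 8 had 1 to 10, 6 had 11 to 30 and 11 had more than 30. A count was present in all 12 raphe libraries for 7 genes. Of the 312 raphe values of the 26 genes, 107 were 0, and the highest single value was 15 counts.

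The raphe remainder was not a fixed share of the amygdala level. Among the 25 genes with a raphe count, the pooled raphe level ranged from 0.105% to 9.53% of the pooled amygdala level, and over all 26 the median was 1.26%. Pooled ratios accordingly ran from 10.5 to 951, with a median of 76.6, and exceeded 100 for 10 genes. ENSRNOG00000018752, at the low end, had 672 amygdala and 65 raphe counts, so the pooled ratio was 10.5 (95% counting interval 8.13 to 13.8). ENSRNOG00000028348 had 641 amygdala counts and 1 raphe count, so the pooled ratio was 651 (95% counting interval 116 to 25741).

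The raphe counts were spread over libraries. The summed level of the 26 genes in the high-responder raphe had a lowest value of 4.40 CPM, a median of 4.94 and a highest value of 5.81 CPM. In the low-responder raphe these were 2.92, 5.02 and 6.75 CPM, so the lines overlapped. The 7 earlier-numbered raphe libraries ranged from 2.92 to 5.81 CPM and the 5 later-numbered ones from 4.40 to 6.75 CPM. In the amygdala the sum was 379.6 to 479.5 CPM in the high-responder and 413.7 to 497.6 CPM in the low-responder libraries. Among genes with at least 12 raphe counts, the largest shares in 1 library were 31.6% for ENSRNOG00000047891, given above, and 6 of 20 counts for ENSRNOG00000000640, in high-responder raphe library 4.

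Genes near the limits of the selection were close in level to those outside it. ENSRNOG00000003959 and ENSRNOG00000028348 were included at 4.11 and 4.25 CPM in the amygdala, while ENSRNOG00000004075 and ENSRNOG00000000196, at 3.87 and 3.84 CPM, were not. On the raphe side ENSRNOG00000018752 and ENSRNOG00000021513 were included at 0.425 and 0.399 CPM, while ENSRNOG00000039191 and ENSRNOG00000013869, at 0.516 and 0.523 CPM, were not. In the amygdala ENSRNOG00000013869 stood at 117.9 CPM, so its pooled level there was close to that of the most abundant of the 26.

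The lines were also taken apart. The 2 limits, applied to the high-responder libraries alone, were met by 23 of the 26 and by 1 further gene. Applied to the low-responder libraries alone, they were met by 23 of the 26 and by 14 further genes. Of the 41 genes that met them in at least 1 line alone, 20 did so in both lines, and all 20 were among the 26. That follows from the definition, since a level pooled over both lines lies between the levels of the 2 lines. It says nothing about agreement between lines. The pooled levels that chose the 26 hold the same libraries. ENSRNOG00000028348, ENSRNOG00000018752 and ENSRNOG00000003959 met the limits in high-responder rats and not in low-responder rats. Their pooled low-responder amygdala levels were 2.16, 3.73 and 3.11 CPM. ENSRNOG00000039107, ENSRNOG00000052017 and ENSRNOG00000011200 met them in low-responder rats and not in high-responder rats. Their pooled high-responder amygdala levels were 2.42, 3.46 and 3.67 CPM. These genes thus missed only the amygdala limit in the other line. None was called between lines by edgeR over all 12 amygdala libraries. Of the 14 further genes, 7 were under 4 CPM in the amygdala and 7 at or over 0.5 CPM in the raphe when both lines were pooled.

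Levels differed between amygdala libraries more for some of these genes than for others. The coefficient of variation (SD over mean) of CPM over the 12 amygdala libraries was at most 0.2 for 8 genes, between 0.2 and 0.5 for 12 and above 0.5 for 6. Its median was 0.286, against 0.134 for the 9811 other genes between 4.11 and 118.1 CPM. The 6 genes above 0.5 were 23.1% of the 26, while 0.978% of those other genes exceeded 0.5. The other genes were not matched for level within that range, and 15 of the 26 were under 10 CPM. The difference in variation was not tested, since the pooled amygdala level that chose the genes holds the same libraries. ENSRNOG00000047891 and ENSRNOG00000010888 varied least, with coefficients of 0.0774 and 0.0982. ENSRNOG00000010888 stood at 8.16 to 11.5 CPM with a median of 10.1 CPM, and counting error alone would give it a coefficient of 0.0890. For the more abundant ENSRNOG00000047891 counting error alone would give 0.0260.

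**Figure D2:**
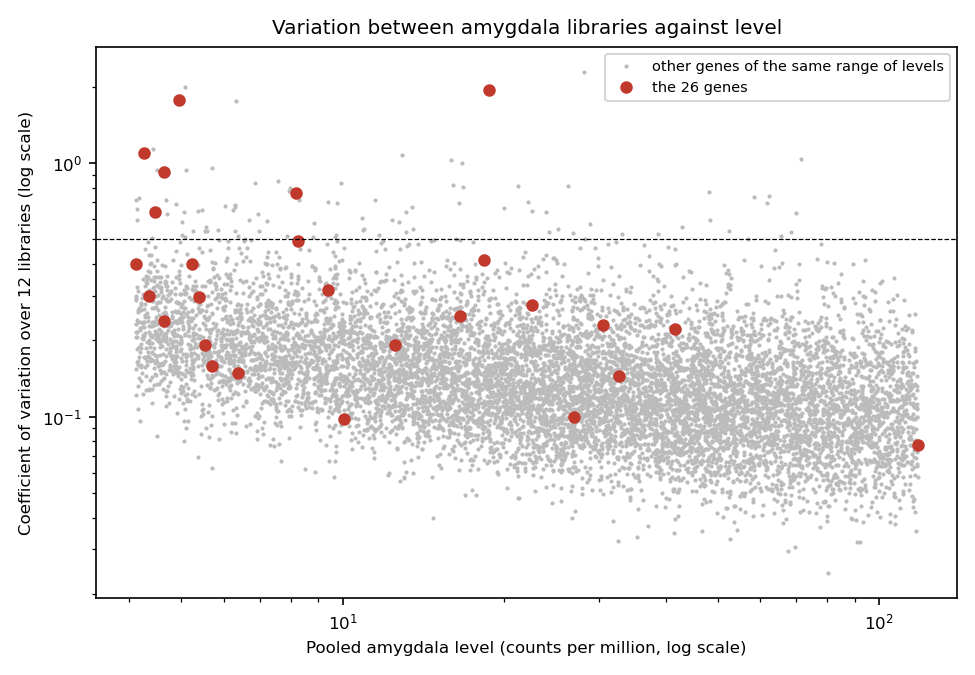
Coefficient of variation over the 12 amygdala libraries (log axis) against pooled amygdala level in CPM (log axis), with the 26 genes in red and 9811 other genes of the same range of levels in grey. The dashed line marks 0.5, above which 6 of the 26 lie.

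The gene with the widest swing was ENSRNOG00000021225, with a coefficient of variation of 1.93. It stood at 91.2 CPM in high-responder amygdala library 3 and at 92.6 CPM in low-responder library 3. High-responder libraries 1 and 6 held 15.7 and 16.5 CPM. The other 8 amygdala libraries were between 0 and 0.607 CPM, and the raphe libraries reached 0.219 CPM. Its 2 highest libraries were thus the same 2 with the smallest share of counts in the 10 most counted genes. In high-responder libraries 1 and 6 that share was 6.92% and 5.89%, within the range of the rest, and its part in the result was not tested. Without the libraries numbered 3 its pooled amygdala level was 4.01 CPM in place of 18.7 CPM.

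ENSRNOG00000028348 was high in some of the same libraries. It stood at 13.2, 10.1 and 6.10 CPM in high-responder libraries 3, 1 and 4 and at 6.39 CPM in low-responder library 3. It had 0 counts in high-responder library 2 and 1 count in low-responder library 6. Without the libraries numbered 3 its pooled level was 3.16 CPM, under the limit of the selection.

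ENSRNOG00000039107 showed another set of high libraries. It stood at 27.8 CPM in low-responder library 6, 12.9 CPM in high-responder library 2 and 11.1 CPM in low-responder library 4. The other 9 amygdala libraries were between 0.253 and 0.990 CPM, while raphe libraries reached 0.796 CPM. High-responder library 2 and low-responder library 6, the 2 lowest libraries of ENSRNOG00000028348, were thus among its 3 highest. Without low-responder library 6 its pooled amygdala level fell to 2.61 CPM.

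ENSRNOG00000052017 was also highest in high-responder library 2, at 15.4 CPM, and in the low-responder line in library 6, at 9.40 CPM. The other 5 high-responder libraries held 1.02 to 1.98 CPM, below all 6 low-responder libraries, which held 3.40 to 9.40 CPM. ENSRNOG00000000640 ranged from 1.26 CPM in high-responder library 6 to 23.8 CPM in low-responder library 4, with a median of 7.06 CPM. ENSRNOG00000018752 ranged from 1.35 CPM in high-responder library 6 to 10.4 CPM in high-responder library 4, with a median of 4.23 CPM. Some genes thus shared high libraries, ENSRNOG00000021225 with ENSRNOG00000028348 and ENSRNOG00000039107 with ENSRNOG00000052017, and the pairs differed from each other in theirs. The 6 genes were named here because they were the ones above 0.5, after their values were seen.

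**Figure D3:**
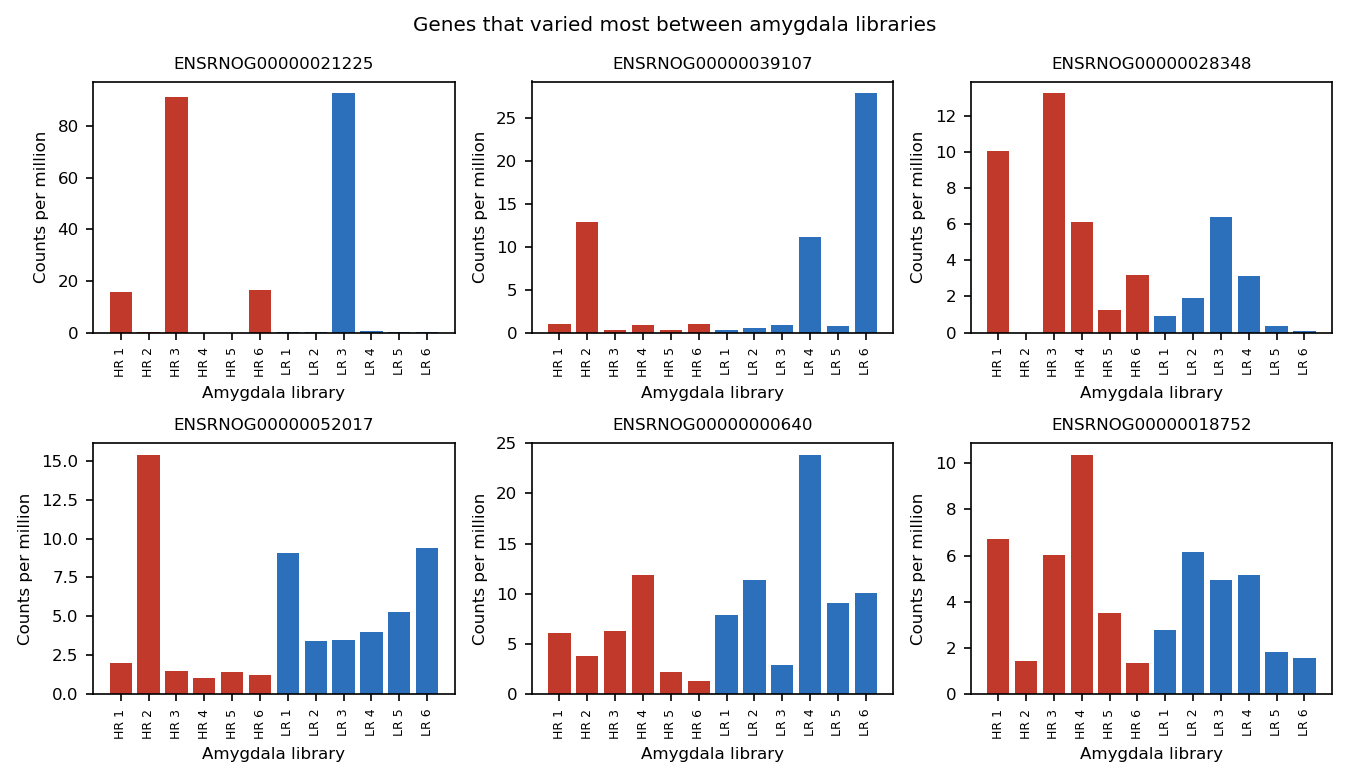
Level in CPM in each of the 12 amygdala libraries for the 6 genes that varied most, with bars in red for high-responder (HR) and blue for low-responder (LR) libraries. ENSRNOG00000021225 is highest in the libraries numbered 3 of both lines, and ENSRNOG00000039107 in HR 2, LR 4 and LR 6.

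Few of the 26 rested on 1 library. With its own highest amygdala library left out, the pooled level was still at least 4 CPM for 22 genes and was below it for 4. High-responder library 4 held the highest value of 5 genes and low-responder library 2 of 4. High-responder library 2 held the lowest value of 6 genes, high-responder library 4 of 5 and high-responder library 6 of 4. The low and high ends were thus spread over several libraries, and 1 library could be high for some genes and low for others.

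**Figure D4:**
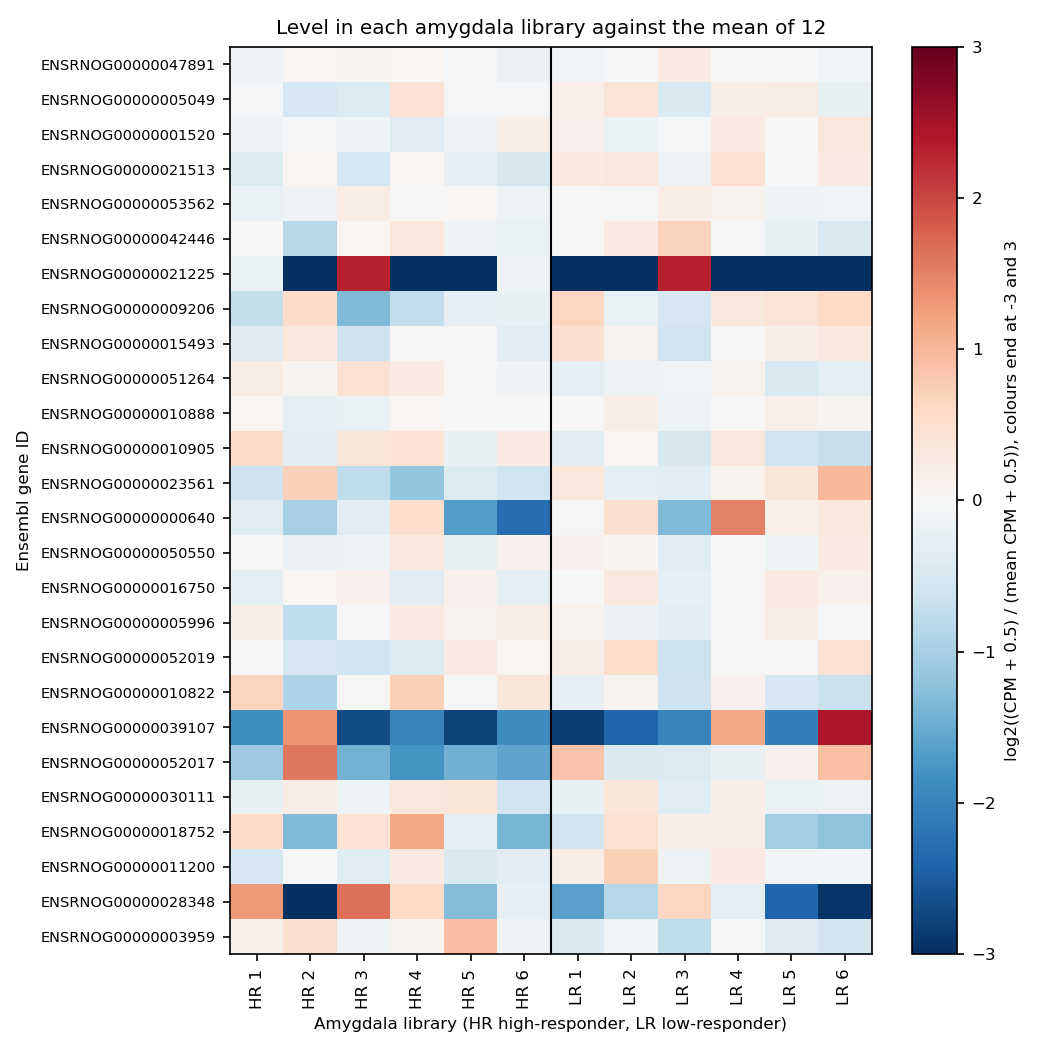
Level of each of the 26 genes in each amygdala library relative to its mean over the 12, as log2 of (CPM + 0.5) over (mean CPM + 0.5), in red above and blue below the mean, with genes ordered by level. The strongest colours belong to the 6 most variable genes.

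The lines were compared within the amygdala to ask whether these genes differ between high-responder and low-responder rats. The selection pooled the lines and did not use this contrast, but it used the same amygdala libraries. A gene near 4 CPM can pass through the line in which it is higher. ENSRNOG00000003959 had a pooled level of 5.11 CPM in the high-responder and 3.11 CPM in the low-responder amygdala. For ENSRNOG00000011200 these were 3.67 and 5.04 CPM. Line differences of such genes are not independent of the selection. Of the 26 genes, 25 passed the filter on low counts and 0 passed an adjusted p of 0.05 (edgeR quasi-likelihood test, Benjamini-Hochberg over all 14265 genes tested), where 0.0210% of all genes did. DESeq2 called 0 of the 25 and 82 of all genes, and had 8 of the 25 and 8.78% of all genes at an unadjusted p under 0.05. Limma voom with quality weights called 4 of the 25, described below, and had 14 of the 25 and 19.5% of all genes at an unadjusted p under 0.05. The gene left out by the filter was ENSRNOG00000021225. With edgeR, 7 of the 25 had an unadjusted p under 0.05, 3 higher and 4 lower in high-responder rats, against 8.34% of all genes tested. These 7 differed by 0.36 to 1.05 on the log2 scale. Levels of different genes come from the same 12 libraries, so the 7 are not separate observations.

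Sizes of the line difference were larger among the 25 than over all genes tested, with a median absolute log2 fold change of 0.36 against 0.09. The genes compared were not matched for level or for variation between libraries. The median coefficient of variation was 0.286 for the selected genes, against 0.134 for other genes of their range of levels. Whether the larger sizes go beyond this variation was not tested. Some of the 25 also reached the amygdala limit in a single line, so their differences are not independent of the selection. Signs among the 25 were mixed: 8 were higher and 17 lower in high-responder rats. The 2 lines overlapped for every one of the 25 in CPM, where 0.631% of all genes tested had no overlap. The difference was within 0.1 of 0 on the log2 scale for 5 genes, ENSRNOG00000047891 among them at -0.04 (SE 0.07, edgeR adjusted p = 0.926).

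The genes with the smallest unadjusted p in each direction are described next. ENSRNOG00000021513 had a lowest value of 21.0 CPM, a median of 24.4 and a highest value of 31.9 CPM in the high-responder amygdala. In the low-responder amygdala these were 27.8, 36.9 and 42.5 CPM. Low-responder libraries 1, 2, 4 and 6 lay above every high-responder library, and the lines overlapped between 27.8 and 31.9 CPM. The means were 25.9 ± 4.89 and 35.6 ± 5.48 CPM (SD, n = 6 per line). The high-responder minus low-responder difference on the log2 scale was -0.47 with an SE of 0.14 (edgeR adjusted p = 0.376). In the earlier-numbered libraries alone (4 per line) the fold change was -0.45, and in the later-numbered ones (2 per line) -0.51.

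ENSRNOG00000009206 was lower in high-responder rats on average, with libraries of 7.11 to 27.4 CPM and a median of 13.5 CPM, against 12.9 to 29.5 CPM and a median of 24.1 CPM. High-responder library 2, at 27.4 CPM, lay among the highest low-responder values, and the other 5 were at or below 15.9 CPM. Its means were 14.7 ± 7.05 and 22.6 ± 6.69 CPM (SD, n = 6 per line), and its log2 difference was -0.63 with an SE of 0.29 (edgeR adjusted p = 0.588). It was -0.54 in the earlier-numbered and -0.79 in the later-numbered libraries.

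ENSRNOG00000003959 was higher on average in high-responder rats, at 3.76 to 8.32 CPM with a median of 4.62 CPM, against 2.23 to 3.95 CPM with a median of 2.99 CPM. The lines overlapped narrowly, between 3.76 and 3.95 CPM. The means were 5.18 ± 1.74 and 3.12 ± 0.683 CPM (SD, n = 6 per line), and the log2 difference was 0.72 with an SE of 0.22 (edgeR adjusted p = 0.397). It was 0.53 in the earlier-numbered and 1.08 in the later-numbered libraries. This gene met the limit of 4 CPM only in the high-responder line, so its difference is not independent of the selection.

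ENSRNOG00000051264, the gene with no raphe counts, had 11.5 to 17.4 CPM with a median of 13.9 CPM in high-responder and 8.86 to 13.4 CPM with a median of 10.6 CPM in low-responder rats. High-responder libraries 2, 5 and 6 lay within the low-responder range and the other 3 above it. The means were 14.0 ± 2.04 and 10.9 ± 1.57 CPM (SD, n = 6 per line), and the log2 difference was 0.36 with an SE of 0.12 (edgeR adjusted p = 0.423). The fold change was 0.37 in the earlier-numbered and 0.33 in the later-numbered libraries.

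**Figure D5:**
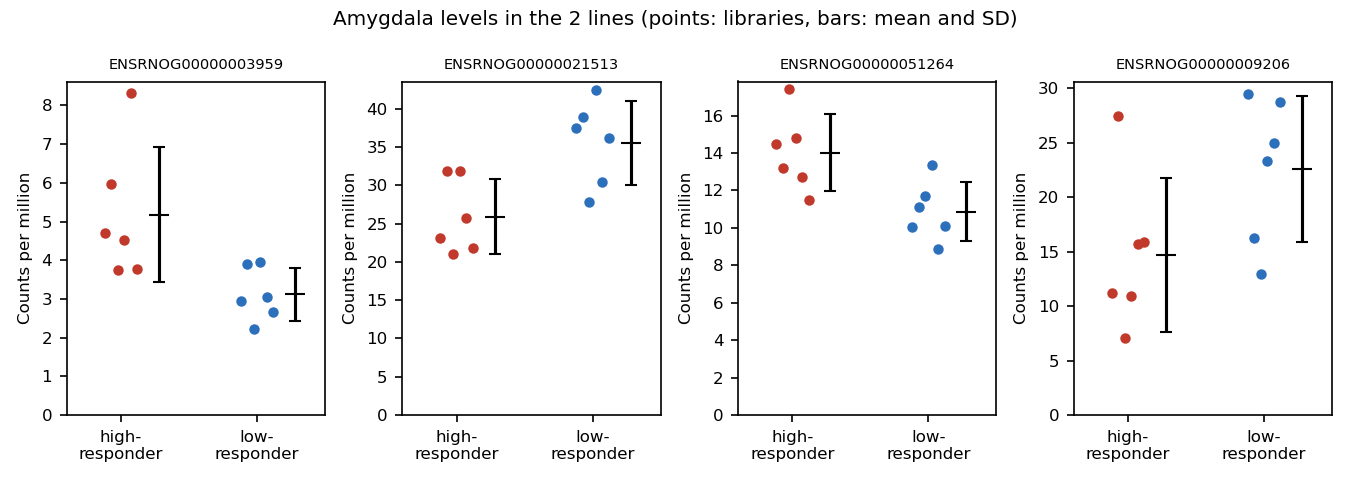
Amygdala levels in CPM of the 4 genes described for the line comparison, with 1 point per library and the mean and SD (n = 6 per line) beside the points. The lines overlap for each gene, and none passed the adjusted p of edgeR.

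The calls depended on the tool and on single libraries. With limma voom and quality weights ENSRNOG00000021513 (log2 fold change -0.56, adjusted p = 0.0232), ENSRNOG00000009206 (-0.91, adjusted p = 0.0335), ENSRNOG00000052017 (-1.67, adjusted p = 0.0381) and ENSRNOG00000023561 (-0.93, adjusted p = 0.0489) were lower in high-responder rats. That method called 246 of the 14265 genes. ENSRNOG00000052017, which in the test of all 12 libraries differed by -0.65 on the log2 scale with an SE of 0.62 (edgeR adjusted p = 0.833), passed without high-responder library 2 at -1.98 (edgeR adjusted p = 0.0357). That library held its highest value, and 27 of 14369 genes passed in that fit. Without that library the pooled amygdala level of ENSRNOG00000052017 was 3.83 CPM, under the limit of the selection. It met the limit of 4 CPM only in the low-responder line, so its line differences are not independent of the selection. In the later-numbered libraries alone (2 per line) ENSRNOG00000052017 stood at -2.46 (edgeR adjusted p = 0.0378) and ENSRNOG00000000640 at -2.49 (edgeR adjusted p = 0.0199). In that fit 61 of all genes passed and 10.9% had an unadjusted p under 0.05. In the earlier-numbered libraries ENSRNOG00000000640 ranged from 3.80 to 11.8 CPM in high-responder and from 2.93 to 23.8 CPM in low-responder rats. In the earlier-numbered libraries 0 of the 25 and 0 of all genes passed with edgeR, and 3 of the 25 and 4.91% of all genes had an unadjusted p under 0.05. The counts among the 25 and over all genes thus moved in the same direction.

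In the dorsal raphe 0 of the 26 genes passed the filter on low counts, so the lines could not be compared there with the test used for the amygdala. That follows largely from the selection, which required less than 0.5 CPM in the raphe. Of the genes that passed the filter in that region, 0.0625% passed the adjusted p and 5.05% had an unadjusted p under 0.05. The genes had 421 counts in all in the high-responder and 343 in the low-responder raphe libraries. With no filter beyond 1 count, 25 of the 26 entered the edgeR fit, 0 were called and 1 had an unadjusted p under 0.05, against 4.55% of all genes in the same fit. That gene was ENSRNOG00000042446, with 11 raphe counts in high-responder and 2 in low-responder libraries and a log2 difference of 1.87 with an SE of 0.68 (edgeR adjusted p = 0.862). No line difference of these genes was detected in the dorsal raphe, where their counts were low. Whether the line difference itself differed between regions was not tested.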

How the data were processed

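Per the labels' protocols, amygdala and dorsal raphe RNA came from Qiagen miRNeasy extraction, followed by poly-A library construction. Trim Galore, STAR and the rn6 rat genome build were used, per the submitters' processing notes. Not given in the sources used here are tool versions, counting program, annotation and strand setting. Deposited values are the authors' counts per gene, with no normalization, in 1 table per library. Reads shared by near-identical, overlapping or antisense genes cannot be told apart. The 26 genes, and the lists and tests used, were chosen with earlier results of these data known.

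CPM was computed here as counts over the library total. Lines were compared within a region with edgeR 4.0.16 in R 4.3.3 (filterByExpr, TMM, glmQLFit, glmQLFTest), with Benjamini-Hochberg adjustment over all genes tested and a threshold of 0.05. Standard errors are the log2 fold change over the square root of F. The edgeR fit of each region was tested on simulated counts with known changes. Alternatives were DESeq2 1.42.0, limma 3.58.1 voom, other scalings and filters, a replicate block, a term for library numbers and libraries left out. Later-numbered libraries are those after the first gap in the library numbers of a group, and the labels do not call them a batch. Lists of marker and pathway symbols were not applied, since 0 of 32662 IDs matched the GRCr8 RefSeq gene table. Named genes were chosen by highest level, closeness to the limits, line difference, highest and lowest variation and share of raphe counts in 1 library, with at most 2 in each direction. Genes named outside this rule were chosen after their values were seen. They included those with a coefficient of variation above 0.5, those that met the limits in 1 line and those called by at least 1 alternative.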

Additional observations from a re-analysis of the deposited data

Results flagged for a closer look

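Of 42 sets of 6 values examined, 8 had 1 library well away from its group. Chance alone gives about 1 in 20, but that rate does not apply here, since ENSRNOG00000021225, ENSRNOG00000039107 and ENSRNOG00000052017, which account for 4 of the 8, were examined because they vary. The values of a library are not independent of each other. Among high-responder amygdala libraries, library 1 had a total of 20194601 counts, against at most 12243679 in the others. The share of counts in the series' 10 most counted genes was lowest in the amygdala libraries numbered 3, at 3.07% (high-responder) and 1.99% (low-responder). In the same libraries ENSRNOG00000021225 reached 91.2 CPM (high-responder) and 92.6 CPM (low-responder), and the next highest values of the groups were 16.5 and 0.607 CPM. ENSRNOG00000047891 reached 140.4 CPM in low-responder amygdala library 3, and no other library of that group exceeded 120.2 CPM. In high-responder amygdala library 2, ENSRNOG00000039107 stood at 12.9 CPM and ENSRNOG00000052017 at 15.4 CPM, where the other 5 reached 0.990 and 1.98 CPM.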

How the results depend on the processing

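The number of genes followed the limits of the selection: 64 at 2 CPM and 14 at 8 CPM in the amygdala, and 15 under 0.25 CPM and 58 under 1 CPM in the raphe, against 26. It was 24 to 27 without any 1 library. Genes of the 26 called between lines in the amygdala were 0, but 4 with limma voom, 2 in later-numbered libraries and 0 to 1 without any 1 library. Over all genes these calls were 3, 246, 61 and 1 to 27. Genes at an unadjusted p under 0.05 were 7, but 14 with limma voom, 3 in earlier-numbered libraries and 11 in later-numbered ones, and 3 to 11 without any 1 library. Over all genes the share was 8.34% with all libraries, 19.5% with limma voom, 4.91% in earlier-numbered and 10.9% in later-numbered libraries. The counts of the 26 were 3 without high-responder library 1 or 3, where the shares of all genes were 5.89% and 7.12%. They were 4 without high-responder library 5 or 6 (7.13% and 7.95%) or low-responder library 1, 5 or 6 (6.44%, 6.93% and 7.73%). They were 11 without high-responder library 2 (1728 of 14369 genes) or low-responder library 3 (12.1%). In these settings count and share moved in the same direction, though the share moved little in some. They moved in opposite directions without low-responder library 2 (8 of the 26, 7.93%) and with no filter beyond 1 count (9 of the 26, 6.83%). Other settings, libraries numbered 3 left out included, kept the counts of the 26 within 1.5 times. In the dorsal raphe 0 were called, but the 26 entered only the fit with no filter beyond 1 count (25 of them), so the 0 of the other settings says nothing about stability. Genes with a coefficient of variation above 0.5 were 5 to 7 against 6. The log2 fold changes of the 4 genes described kept their sign in each of 23 alternatives. That says little about stability, since these genes were chosen by this difference and the alternatives used the same libraries or part of them. The libraries share only a number: same-numbered libraries of the lines correlated from -0.33 to 0.62 in the amygdala and from -0.55 to 0.69 in the raphe in their deviations from group means, and 4 and 2 of 12 correlated best with their own number. With the replicate block 0 of the 26 were called in the amygdala, and none entered that fit in the raphe. In that amygdala fit 8 of the 26 and 9.51% of all genes had an unadjusted p under 0.05. Calls over all genes with the block were 3 in the amygdala and 5 in place of 9 in the raphe. Depth limits what can be said of the raphe, where none of the 26 exceeded 15 counts in a library.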
